A study of Mus musculus with 4 samples.

Results

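A set of 100 genes whose signal was higher without the interferon receptor chain Ifnar1 on both array slides is described here, in intestinal stem cells of mice that had received poly(I:C). The genes were picked on the difference itself. Each named gene was represented by its brightest probe, had to be well above background on both knockout arrays, and was scored by the smaller of its 2 knockout minus control differences, 1 from each array slide. The 100 highest scores were taken out of 14261 eligible genes, themselves part of 21368 named genes with a probe, after leaving out clone-type symbols, the Xlr family and 7 genes skipped by name. Every difference between knockout and control given below for these genes is therefore a description of how they were chosen, and carries no test of its own.

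Both groups were Lgr5-high intestinal stem cells. Control mice carried the Lgr5 knock-in allele (Lgr5ki, labelled Lgr5-EGFP-Ires-CreERT2), which marks these cells with a green fluorescent protein and also brings a tamoxifen-inducible Cre. Knockout mice carried the same allele together with loss of Ifnar1 (Ifnar1-/-:Lgr5ki). All animals in both groups had been given the artificial double-stranded RNA poly(I:C) into the abdominal cavity at 2 mg/kg daily for 1 week, and no untreated sample enters the comparison. Each group had 2 samples, each on an array of its own (4 arrays in all). The arrays numbered 1 of both groups shared slide 1, and those numbered 2 shared slide 2. The labels do not say whether the samples came from separate or pooled animals, so a p-value reflects the spread among these 4 samples alone, and that spread may be technical. The labels used here give no age for the mice.

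Ifnar1 is a chain of the receptor through which every type I interferon signals. Poly(I:C) mimics viral RNA, is sensed by innate receptors and leads to interferon release, which in turn switches on antiviral genes in cells that carry the receptor. Lgr5-high cells lie at the base of the intestinal crypt, divide throughout life and give rise to the other cells of the epithelium, under the control of Wnt, Notch, BMP and growth factor signals.

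Signals are given as log2 of the processed signal minus the array's 75th percentile, so that 0 is the level of a probe at that percentile and a difference of 1 is a 2-fold difference. Values on the arrays are given with slide 1 first and slide 2 second in each group. Of 59305 spots, 63.3% to 67.7% were well above background on the 4 arrays and 0 were saturated. Ifnar1 was at -0.21 and -0.37 in the control and at -1.76 and -2.28 in the knockout, a difference of -1.73 (limma with slide block, adjusted p = 0.0461). Lgr5 was at 3.04 and 2.82 in the control and at 3.32 and 2.93 in the knockout. Of 16 measured stem cell markers 0 were among the 100 genes, and the summed signal of that list lay between 7.96 and 8.02 on the 4 arrays (log2). Tnfrsf19 and Slc14a1 of that list could not be chosen, as the rule skipped them by name. Of the 16, 10 were higher on both slides, against 34.0% of all genes tested, and 3 lower on both. Their median was 0.09 and 0 were called. In summed signal, lists of differentiated cells were less level. The 7 Paneth cell markers were all lower on both slides, and limma with slide block called 6 of them. Their median was -2.01, and their summed signal was 8.86 and 9.22 on the control arrays and 6.91 and 7.59 on the knockout arrays. The 12 enterocyte markers include Alpi, which the rule skipped by name. Of the 12, 8 were higher on both slides, against 34.0% of all genes tested, and 3 lower on both. Their median was 0.37 and 0 were called. The summed signal of the 12 was 5.85 and 6.07 on the control arrays and 6.27 and 6.39 on the knockout arrays. The part of these cells in the differences below was not tested. Among transcripts tied to sex, Xist separated the slides and not the groups. Xist, the RNA that coats the inactive X chromosome of female cells, was at 5.35 and -4.18 in the control and at 4.55 and -4.37 in the knockout. The Y-linked gene Ddx3y was at -1.11 and -0.09 in the control and at -0.41 and -0.14 in the knockout, and Eif2s3y, also Y-linked, at -1.55 and -0.69 in the control and at -0.33 and -0.08 in the knockout. Slide 1 therefore carried Xist and Y-linked signal together in both groups, while slide 2 carried Y-linked signal with Xist not well above background. Whether this touches any gene below was not tested. Of the 100 genes 5 lie on the X chromosome (Dach2, Gk, Tspan6, Dcaf12l1 and Spin2c) and 0 on the Y.

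The 100 genes had a median difference of 1.45 (log2), with a range of 0.83 to 2.87, against a median of 0.04 over the eligible genes. By slide, the median was 1.38 (slide 1) and 1.39 (slide 2). Slc38a4 had the highest score of those taken, 2.47, and Zfp418 the lowest, 0.81. The rule skipped 12 genes that scored above Zfp418, among them Lef1 at 2.69, above Slc38a4, and Xlr4b at 2.42. The last genes inside the threshold were Kctd6 and Sdc2 at 0.83, Spin2c at 0.82, Vill at 0.81 and Zfp418. Just outside lay Lat2, Dnajc16, Pcdh19, Cyp2ab1 and Def8, each at a score of 0.80. Lat2 was at -2.61 and -1.78 in the control and at -1.74 and -0.97 in the knockout, Dnajc16 at -3.47 and -4.63 in the control and at -2.62 and -3.83 in the knockout and Def8 at 0.24 and -0.37 in the control and at 1.04 and 0.46 in the knockout. These 3 genes had much the same difference on either slide. Pcdh19 was at -4.75 and -6.60 in the control and at -3.95 and -3.49 in the knockout and Cyp2ab1 at -4.98 and -6.62 in the control and at -4.18 and -4.09 in the knockout. Both differed far more on slide 2 than on slide 1, and their score came from slide 1. All 100 were higher on both slides by the rule, and so were 36.7% of the eligible genes. The rule also favours a gap between the groups, since it takes the largest differences found on both slides. Both knockout arrays lay above both control arrays for 97 of the 100 genes, as they did for 17.1% of the eligible genes. The exceptions were Pfn2, Sdc2 and Grin2d, whose slides differed by more than the groups. The difference was larger on slide 1 for 47 genes, and for 16 it differed by more than 1 between the slides.

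**Figure D1:**
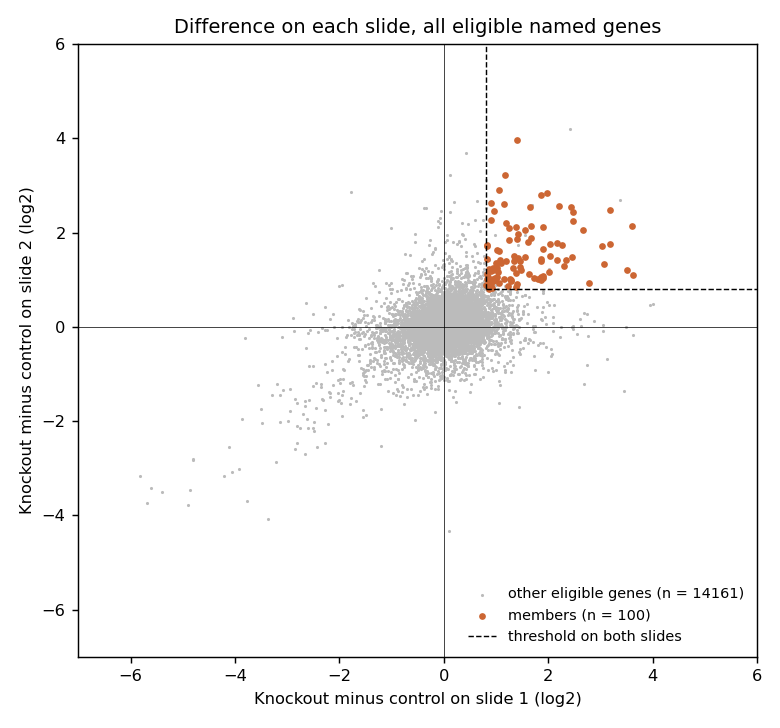
Knockout minus control difference on slide 1 (horizontal axis, log2) against slide 2 (vertical axis, log2) for the 100 genes (orange) and the other eligible genes (grey), with dashed lines at the lowest score taken. The orange points fill the upper right corner by construction, between 0.81 on either axis and 3.95 for Wasf1 on slide 2, while the grey cloud centres near 0.

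In the plot of the differences by slide, the genes lie in the corner the rule cuts out, and several sit far from equal values on the axes. Wasf1 differed by 1.40 on slide 1 and 3.95 on slide 2, and Olfm2 the other way round, by 3.62 and 1.09. A mirrored rule with the same skips, for genes lower in the knockout, gave larger values: its first gene scored 5.94 and its hundredth 1.23, compared with 2.47 and 0.81 here.

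Over all 24865 genes tested, limma with the group as its only term called 0 genes in either direction after Benjamini-Hochberg adjustment (smallest adjusted p = 0.2233). At an unadjusted p under 0.05 there were 259 genes on the higher side and 427 on the lower. Among the 100 genes the smallest adjusted p in that fit was 0.2471. With the slide as a block, limma called 13 genes higher, which is 0.0523% of those tested, and 90 lower, or 0.362%. The 4 of the 100 genes called there were Fstl1, Chst2, Cyp2e1 and Mycn. The adjusted p of the 4 ran from 0.0117 to 0.0488, and since they were picked for the difference, these values do not support it. The slide-block fit leaves 1 residual degree of freedom. Without the intensity trend it called 0 genes (smallest adjusted p = 0.4415), with 1042 on the higher and 1023 on the lower side at an unadjusted p under 0.05.

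Chst2, a sulfotransferase that adds sulfate to N-acetylglucosamine on glycoproteins, including the ligands of L-selectin, was at -2.24 and -1.84 in the control and at 0.23 and 0.41 in the knockout. Its mean was -2.04 ± 0.28 in the control and 0.32 ± 0.13 in the knockout (SD, n = 2), which is 5.13-fold higher. All 4 arrays were well above background and the groups stood far apart compared with the spread inside them. A second Chst2 probe, which did not reach well above background on both knockout arrays, was at -6.38 and -6.29 in the control and at -6.14 and -4.39 in the knockout.

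Fstl1, a secreted glycoprotein of the follistatin family that binds BMP and activin ligands, was at 0.55 and 1.15 in the control and at 2.45 and 2.80 in the knockout. Its mean was 0.85 ± 0.42 in the control and 2.63 ± 0.24 in the knockout (SD, n = 2), which is 3.42-fold higher. Slide 2 read higher than slide 1 in both groups, and the groups did not overlap.

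Mycn, a transcription factor of the MYC family that drives growth and proliferation in embryonic and progenitor cells, was at 0.20 and -0.63 in the control and at 1.29 and 0.73 in the knockout. The mean was -0.22 ± 0.59 in the control and 1.01 ± 0.40 in the knockout (SD, n = 2), 2.34-fold higher. Here slide 1 read higher than slide 2 in both groups, and the lowest knockout array lay above the highest control array.

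Cyp2e1, a cytochrome P450 that oxidises ethanol and other small molecules, was at 1.48 and 1.55 in the control and at 2.55 and 2.97 in the knockout. The control arrays nearly coincided at a mean of 1.52 ± 0.05 and the knockout mean was 2.76 ± 0.29 (SD, n = 2), 2.37-fold higher. A further Cyp2e1 probe lay at -0.26 and -0.08 in the control and at 0.72 and 1.35 in the knockout, with the same order of the groups.

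The bases upstream of these 4 start sites are shown to set them side by side, as those of the chosen genes that the slide-block fit called; that fit called 13 genes higher over all genes, and the fit without the block called 0. Each sequence is the 250 bases before the start site from RefSeq on build GRCm38.p6, written 5′ to 3′ on the gene's own strand. Capitals mark matches to the motifs searched.
Chst2: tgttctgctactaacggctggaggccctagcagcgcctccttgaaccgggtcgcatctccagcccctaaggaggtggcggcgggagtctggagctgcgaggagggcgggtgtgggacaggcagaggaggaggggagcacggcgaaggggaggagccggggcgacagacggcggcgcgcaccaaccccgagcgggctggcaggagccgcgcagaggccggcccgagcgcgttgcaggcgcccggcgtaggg
Fstl1: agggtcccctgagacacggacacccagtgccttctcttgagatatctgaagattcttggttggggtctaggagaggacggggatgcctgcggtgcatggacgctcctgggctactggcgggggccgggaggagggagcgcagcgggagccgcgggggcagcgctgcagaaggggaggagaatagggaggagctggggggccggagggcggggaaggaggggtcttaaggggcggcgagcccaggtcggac
Mycn: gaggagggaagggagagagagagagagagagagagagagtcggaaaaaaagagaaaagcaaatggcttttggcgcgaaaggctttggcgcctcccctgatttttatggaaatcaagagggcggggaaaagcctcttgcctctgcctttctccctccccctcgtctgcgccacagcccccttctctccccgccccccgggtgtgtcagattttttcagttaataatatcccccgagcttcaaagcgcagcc
Cyp2e1: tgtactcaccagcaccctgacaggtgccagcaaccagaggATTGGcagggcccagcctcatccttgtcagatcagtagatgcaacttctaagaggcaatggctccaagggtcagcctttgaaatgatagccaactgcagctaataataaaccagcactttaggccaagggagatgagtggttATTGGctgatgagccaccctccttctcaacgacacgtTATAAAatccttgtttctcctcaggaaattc
They lie at chr9:95407271-95407520 on the minus strand (Chst2), chr16:37776805-37777054 on the plus strand (Fstl1), chr12:12941837-12942086 on the minus strand (Mycn) and chr7:140763569-140763818 on the plus strand (Cyp2e1).

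The 4 windows were unlike in composition. The bases upstream of Chst2 were 72.8% G+C with a CpG ratio, observed over expected, of 0.86, and those of Fstl1 68.0% with 0.65. Mycn had 54.8% and 0.59. Cyp2e1 had 48.8% and a CpG ratio of 0.14, which is the CpG-poor type. Of the 7 motifs searched on both strands, the Cyp2e1 window held TATAAA at 31 to 26 bases before the start and CCAAT in reverse at 210 to 206 and 68 to 64 bases before it. The windows of Chst2, Fstl1 and Mycn held 0 matches, which says only that those letters are not in these windows.

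The genes that handle sulfated sugars and the matrix around cells made up 13 of the 100. Cells display chains of sugars on proteoglycans and glycoproteins, and sulfate groups on these chains set which growth factors and lectins they hold. Apart from Chst2 and Fstl1, Fras1, a basement membrane protein of epithelia, was at -3.34 and -5.15 in the control and at -1.45 and -3.03 in the knockout, with 1 of 2 control arrays well above background. Ccbe1, a secreted protein needed to process a lymphatic growth factor, was at -2.90 and -3.37 in the control and at -0.86 and -1.86 in the knockout. Slide 1 read higher than slide 2 in both groups for these genes, and within each slide the knockout array was the higher. Tpst1, which sulfates tyrosines on secreted proteins, was at -5.16 and -4.81 in the control and at -2.81 and -3.40 in the knockout. B4galnt3, a glycosyltransferase that builds an N-acetylgalactosamine cap on glycoproteins, was at -6.72 and -4.62 in the control and at -3.20 and -3.41 in the knockout. Chst11, which sulfates chondroitin, was at -4.91 and -6.59 in the control and at -3.76 and -3.99 in the knockout. In Tpst1, B4galnt3 and Chst11 the control arrays were not well above background, so only bounds can be given.

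Such a bound sets the knockout mean against, on each control array, the higher of the probe's own signal and the lowest signal among probes well above background there. By it Tpst1 was at least 2.53-fold higher, B4galnt3 at least 2.20-fold and Chst11 at least 1.49-fold. The control arrays themselves were far apart for B4galnt3 and Chst11, with the higher on slide 2 for the former and on slide 1 for the latter. Leaving out an array in turn, added after seeing the data, moved 4 of the 36 such bounds by over 1.5 times: Sall2, Kcns3, Allc and Olfm2. Sdc2, a heparan sulfate proteoglycan of the cell surface, was at -0.41 and -1.25 in the control and at 0.52 and -0.42 in the knockout. The control array of slide 1 and the knockout array of slide 2 lay at almost the same value, the control the higher, so the groups overlapped slightly. The rest of this group were Lamb2, a laminin chain, Olfm2, an olfactomedin, Dsel, an epimerase-like protein of dermatan sulfate, Epdr1 and Col3a1, with differences from 0.95 (Col3a1) to 2.35 (Olfm2). Olfm2 was dim on both control arrays, at least 1.85-fold higher, 1.08-fold without knockout 1 and 3.16-fold without knockout 2.

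Col3a1, the collagen III chain made by fibroblasts, is also a marker of mesenchyme and was at -3.75 and -3.95 in the control and at -2.84 and -2.96 in the knockout. It was well above background on all 4 arrays and higher in both knockout arrays. Of the 18 mesenchymal markers 8 could be tested, their median difference was -0.07, 0 passed in either direction and Col3a1 was the 1 among the 100 genes. The summed signal of the list was 2.74 and 2.94 on the control arrays, and 2.71 and 2.88 on the knockout arrays (log2). Of the 18 markers 7 were not well above background on any array, Col1a1, Pdgfra, Lum, Dcn and Fn1 among them. Of the 8 tested, 2 were higher and 5 lower on both slides. The part of mesenchymal cells in the Col3a1 value was not tested.

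The other sulfotransferases and sulfatases lay on both sides of 0. Of 23 genes in the list 14 were tested, with a median difference of -0.11, compared with 0.02 over all genes tested. Chst2 was called higher with the slide block and 0 were called lower. Sulf2, an enzyme that removes sulfate from heparan sulfate, lay at the other end at -1.82 and -2.52 in the control and at -3.60 and -4.42 in the knockout, a difference of -1.84. It was short of the threshold (limma with slide block, adjusted p = 0.117). Among 8 tested syndecans and glypicans, a list set up after Sdc2 was known, the median was 0.22 and 0 passed. In the follistatin family, likewise added afterwards, Fstl1 was called and 3 others tested were not, with Fstl3 at a difference of 0.26, Smoc2 at 0.06 and Sparc at -0.06.

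Signalling genes numbered 10. Jag2, a ligand of Notch receptors, was at -5.67 and -5.24 in the control and at -4.11 and -3.18 in the knockout. Neither control array was well above background, and the bound, explained above, was 1.74-fold or more. Tspan6, a tetraspanin of the membrane, was at -3.74 and -3.43 in the control and at -2.26 and -2.23 in the knockout. Tspan33, also a tetraspanin, was at -2.35 and -1.40 in the control and at -0.46 and -0.37 in the knockout. Both tetraspanins were well above background throughout, and the control arrays of Tspan33 were further apart than its knockout arrays. Dab1, the adaptor that relays Reelin signals into the cell, was at 1.25 and 0.12 in the control and at 2.27 and 1.76 in the knockout. Slide 1 read higher in both groups, more so in the control. Gngt2, a gamma subunit of heterotrimeric G proteins, was at -1.75 and -1.16 in the control and at -0.48 and -0.15 in the knockout. Ranbp3l, a nuclear export factor linked to SMAD signals, was at -4.84 and -4.55 in the control and at -3.82 and -3.31 in the knockout, at least 1.83-fold higher. Slide 2 was the higher in both groups for Gngt2 and Ranbp3l. Fzd1, a Wnt receptor, was at -2.20 and -3.18 in the control and at -1.37 and -1.75 in the knockout. Its lowest knockout array lay above its highest control array. Rap2b, a small GTPase, Ptprm, a receptor tyrosine phosphatase, and Ppp1r13l, an inhibitory partner of a tumour suppressor, had differences between 0.95 and 1.14.

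The pathways around these genes gave the following values. In the Notch list 12 of 14 genes were tested, with a median of 0.06 and 0 passing in either direction with the slide block. Jag1, the other Jagged ligand, differed by 0.11, Notch1 by 0.33 and the target Hes1 by -0.03. Hey1, also a Notch target, was at -2.71 and -1.33 in the control and at -4.33 and -3.46 in the knockout with 1 of 2 knockout arrays well above background, opposite in sign to Jag2 (limma with slide block, adjusted p = 0.117). In the list of BMP, TGF-beta and activin genes 17 of 23 were tested, Fstl1 was called higher, 0 lower, and the median was 0.10. Id1 and Id2, targets of BMP signals, differed by 0.44 and 0.72 without passing (limma with slide block, adjusted p = 0.269 and 0.278). Follistatin itself (Fst) and Grem1 were not well above background on any array. Of 16 tested Wnt feedback genes and targets 0 passed and the median was 0.12. Of these, 11 were higher on both slides, against 34.0% of all genes tested, and 3 lower on both. Lef1, a transcription factor of the Wnt pathway, differed by 3.38 on slide 1 and 2.69 on slide 2. It is not among the chosen genes because the rule skipped it, and its score was above that of Slc38a4. Of 8 tested frizzled receptors 0 passed and the median was 0.18, with Fzd9 at a difference of -1.32 against 1.13 for Fzd1.

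**Figure D2:**
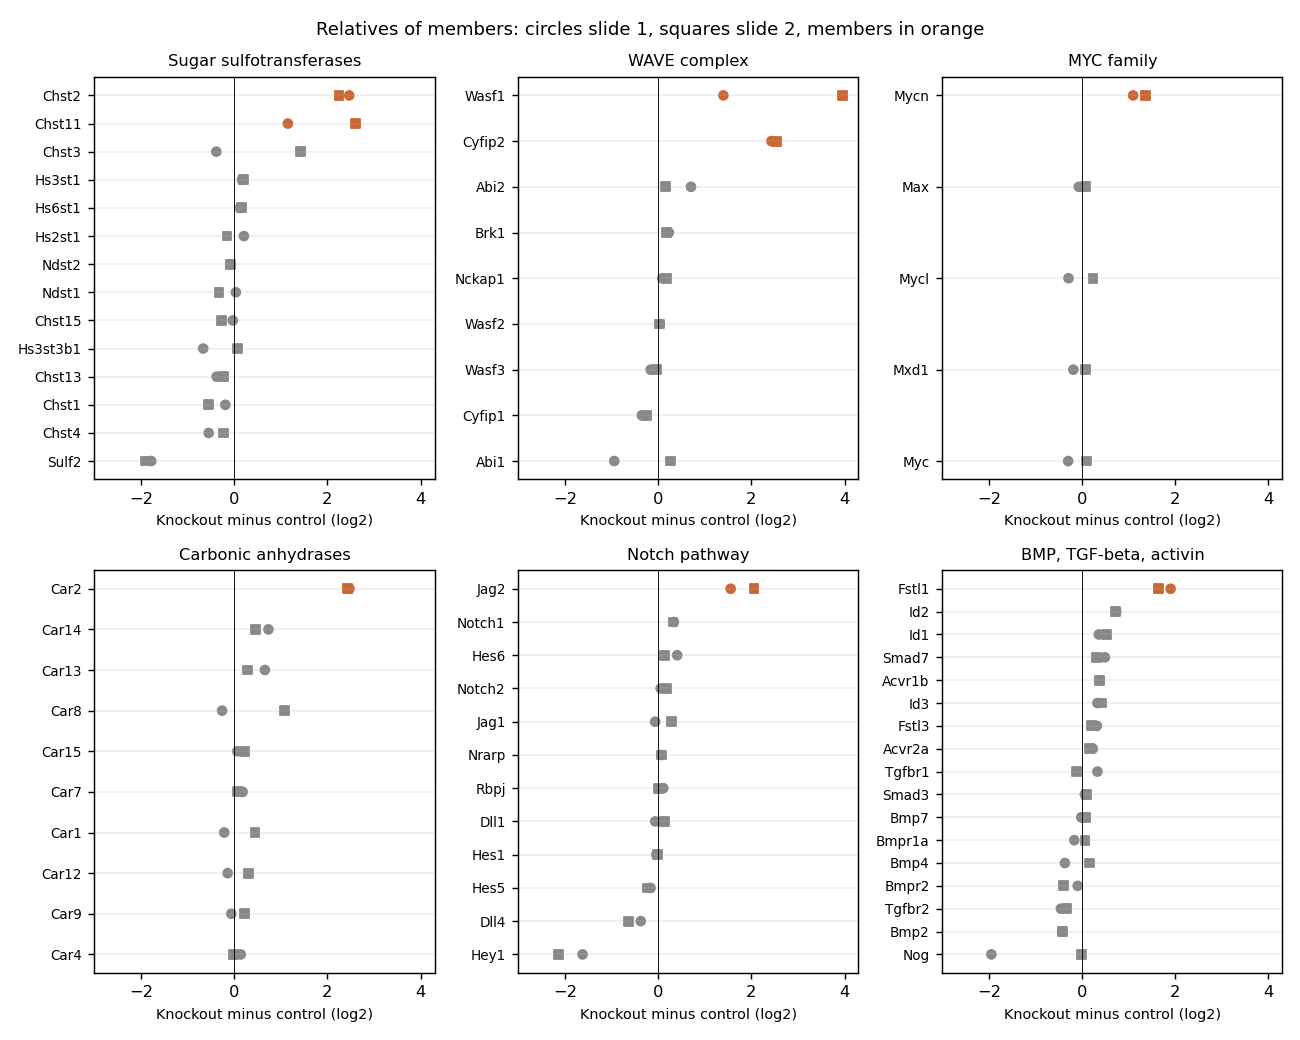
Knockout minus control difference (log2, horizontal axis) of the tested members of 6 gene lists, with slide 1 as circles, slide 2 as squares and the genes of the chosen 100 in orange. In each panel the orange genes stand at the top, a place the rule favours. Their relatives scatter around 0, with Sulf2 and Hey1 at -1.84 and -1.88 on the other side.

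The panels of relatives show the chosen gene and its family on the same scale, slide by slide. The rule favours a place at the top for the chosen genes, so their place says nothing by itself. What the panels add is where the relatives lay. In the MYC family, for example, Mycn stood at 1.23 while Myc, the family member best known in crypt cells, differed by -0.10, Mycl by -0.03 and their partner Max by 0.00. The MYC, WAVE and carbonic anhydrase lists were set up after the genes were known.

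Transcription factors and chromatin proteins made up 11 genes, 7 of them not well above background in the control. Dppa5a, an RNA-binding protein of pluripotent and germ cells, was at -6.41 and -6.67 in the control and at -4.21 and -4.10 in the knockout. Sall2, a zinc finger factor of the spalt family, was at -6.57 and -6.29 in the control and at -2.98 and -4.15 in the knockout. Zfp750, a factor of epidermal differentiation, was at -6.21 and -6.55 in the control and at -3.55 and -4.50 in the knockout. Their control arrays sat near the bottom of the scale, and the bounds were low: at least 1.22-fold, 1.84-fold and 1.34-fold higher. Without knockout 1 the bound of Sall2 was 1.22-fold, and without knockout 2 it was 2.76-fold. Zfp750 had no bound above 1 without knockout 1. Dach2, a relative of the Drosophila dachshund gene, was at -5.19 and -6.45 in the control and at -3.52 and -4.31 in the knockout. Bend5, a BEN domain protein that binds DNA, was at -5.00 and -6.59 in the control and at -3.36 and -4.06 in the knockout. Zfp697, a zinc finger protein, was at -4.88 and -4.70 in the control and at -3.51 and -3.55 in the knockout. In these, slide 1 read higher than slide 2 in the knockout, and the bounds were 1.44-fold, 1.67-fold and 1.88-fold. Besides Mycn, the others were Tspyl5, a relative of nucleosome assembly proteins, and Cenps, a protein of the kinetochore and of DNA repair, of which Tspyl5 was dim on both control arrays, at least 1.72-fold higher and Cenps 1.98-fold higher. Spin2c, a histone reader of the spindlin family, was at -2.07 and -2.75 in the control and at -1.25 and -1.04 in the knockout. Zfp418, a zinc finger protein and the last gene taken, was at -2.78 and -2.49 in the control and at -1.92 and -1.68 in the knockout. Of 5 tested germline genes, Dppa5a among them, 0 passed and the median was 0.23. Dppa4, its namesake in pluripotent cells, differed by 0.27. Of 13 germline genes with a probe 4, Ddx4 and Dazl among them, were not well above background on any array.

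Genes of the actin skeleton, junctions and cell shape formed the largest group, with 17. The WAVE complex switches on branching of actin filaments at the cell edge, and 2 of its components were among them. Cyfip2, which holds the complex inactive until Rac binds, was at -6.21 and -6.65 in the control and at -3.78 and -4.11 in the knockout, at least 1.41-fold higher. Wasf1, its activating subunit, was at -3.56 and -5.80 in the control and at -2.16 and -1.85 in the knockout, with 1 of 2 control arrays well above background. The Wasf1 knockout arrays were close together and the control arrays far apart, with slide 2 the lower. Of the 9 WAVE genes tested 0 passed, Cyfip2 and Wasf1 included, and the list median was 0.14. Wasf2 had a difference of 0.03 and Cyfip1 of -0.30.

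Myom1, a protein of the sarcomere's M band, was at -5.77 and -4.40 in the control and at -3.60 and -2.62 in the knockout. Mpp4, a scaffold protein known from photoreceptors, was at -6.65 and -5.20 in the control and at -3.48 and -3.44 in the knockout. A further Mpp4 probe went the other way, at -4.30 and -4.53 in the control and at -6.07 and -4.76 in the knockout. It was lower on both slides and not well above background on both knockout arrays. Cldn8, a claudin that seals tight junctions, was at -5.47 and -5.68 in the control and at -3.45 and -3.92 in the knockout. By their brightest probes, none of these genes was well above background in the control, and they were at least 2.52-fold, 1.98-fold and 1.69-fold higher. The order of the slides differed between them, with slide 2 higher for Myom1 in both groups and slide 1 higher for Cldn8. Of 12 tested claudins, listed afterwards, 0 passed and the median was 0.01, with Cldn2, found in crypts, at a difference of -0.55 and Cldn7 at 0.03. Bin1, which bends membranes, was at -3.50 and -3.76 in the control and at -1.84 and -1.88 in the knockout, and it was 3.41-fold higher with all 4 arrays well above background. Pfn2, a profilin that supplies actin monomers, was at -3.68 and -5.37 in the control and at -2.26 and -3.91 in the knockout. For Pfn2 the knockout array of slide 2 lay below the control array of slide 1, so the groups overlapped. Pfn1, the widespread profilin, differed by 0.12.

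The other members of the actin and junction group were Pard6g, of the polarity complex, Pdzd2, Phldb2, which anchors microtubules at the cell cortex, Eps8l1, Capn2, a calpain protease, Ctnna2, an alpha-catenin, Frmpd1, Smtnl2, Scin, which severs actin filaments, and Vill, a relative of villin. Their differences ran from 0.85 for Vill to 1.80 for Phldb2, a gene well above background on all 4 arrays and 3.47-fold higher. Vill was at -4.21 and -4.41 in the control and at -3.40 and -3.52 in the knockout, with 1 of 2 control arrays well above background. Villin itself (Vil1) belongs to the epithelial marker list, in which 0 of 10 tested genes passed and the median was 0.02.

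Metabolic and detoxifying enzymes numbered 11. Car2, a carbonic anhydrase that interconverts carbon dioxide and bicarbonate, was at -4.31 and -4.83 in the control and at -1.84 and -2.40 in the knockout, with 1 of 2 control arrays well above background. Its differences on the slides were 2.47 and 2.43 and came close to each other. Gk, glycerol kinase, was at -4.43 and -5.41 in the control and at -1.98 and -3.94 in the knockout. Mtrr, which keeps methionine synthase active, was at -4.61 and -4.20 in the control and at -2.76 and -2.81 in the knockout, at least 3.0-fold higher. Gk had 1 of 2 control arrays well above background and its knockout arrays were almost as far apart as the groups. Aldh1a7, an aldehyde dehydrogenase, was at -3.85 and -4.99 in the control and at -2.60 and -3.14 in the knockout, with 1 of 2 control arrays well above background. Allc, an allantoicase, was at -5.09 and -4.60 in the control and at -3.92 and -1.38 in the knockout, at least 3.47-fold higher. For Allc the knockout array of slide 2 stood far above that of slide 1, and the bound was 8.36-fold without knockout 1 and 1.44-fold without knockout 2. Mettl7b, Adh6a, an alcohol dehydrogenase, Gstk1, a glutathione transferase, Akr1c14, a steroid dehydrogenase, and Aldoc, an aldolase, were well above background on all 4 arrays, with differences from 0.89 to 1.07. Of 10 tested carbonic anhydrases 0 passed and the median was 0.13. Car4 differed by 0.06 and Car1 by 0.12.

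Some of these enzymes are best known from liver, as are several secreted or plasma proteins among the 100. Asgr1, a chain of the liver receptor that clears desialylated glycoproteins, was at -1.88 and -1.50 in the control and at -0.42 and -0.23 in the knockout and 2.57-fold higher. Afm, a plasma carrier of the albumin family, was at -6.27 and -3.93 in the control and at -3.49 and -3.01 in the knockout, with 1 of 2 control arrays well above background. Mup4, a urinary pheromone carrier, was at -5.38 and -6.08 in the control and at -3.99 and -3.96 in the knockout, at least 1.38-fold higher. The groups were apart for each, although the control arrays of Afm differed by more than its groups. Of 16 liver genes listed after the 100 were known, 11 were tested, 5 were among the 100 (Cyp2e1, Asgr1, Adh6a, Afm and Mup4) and 1, Cyp2e1, was called. The median difference was 0.38, against 0.02 over all genes tested. The 5 chosen genes are higher on both slides by the rule, so this median and the next count follow in part from the choice. Of the 11, 7 were higher on both slides, against 34.0% of all genes tested, and 2 were lower on both. The lower ones were Apoa2 at a difference of -0.12 and Cyp2c29 at -0.48. The summed signal of the list was 6.70 and 6.39 on the control arrays, and 6.92 and 6.56 on the knockout arrays (log2). Of the 16 genes 4 were not well above background on any array: albumin (Alb), fibrinogen (Fgb), Apoh and Ahsg. The part of liver-type cells in these values was not tested.

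The same group of plasma, pheromone and protease-inhibitor proteins held Vmn1r42, a vomeronasal pheromone receptor, at -6.11 and -5.54 in the control and at -3.85 and -3.80 in the knockout. It was at least 1.53-fold higher. Wfdc2, a secreted protein of the whey acidic family found in epithelia, was at -2.51 and -3.02 in the control and at -0.95 and -1.54 in the knockout and 2.87-fold higher. Wfdc16, of the same family, was at -3.69 and -4.52 in the control and at -1.84 and -3.47 in the knockout, with 1 of 2 control arrays well above background. For Wfdc2 and Wfdc16 slide 1 read higher in both groups, and the groups did not overlap. Cpm, a membrane carboxypeptidase, was at -2.70 and -2.56 in the control and at -1.65 and -0.96 in the knockout, and Stfa3, a stefin that inhibits cathepsins, was dim on both control arrays, at least 1.68-fold higher. Mup4, Vmn1r42, Stfa3, Klrb1f and Spin2c belong to families of close relatives, and a probe for such a gene can also bind a relative's transcript.

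**Figure D3:**
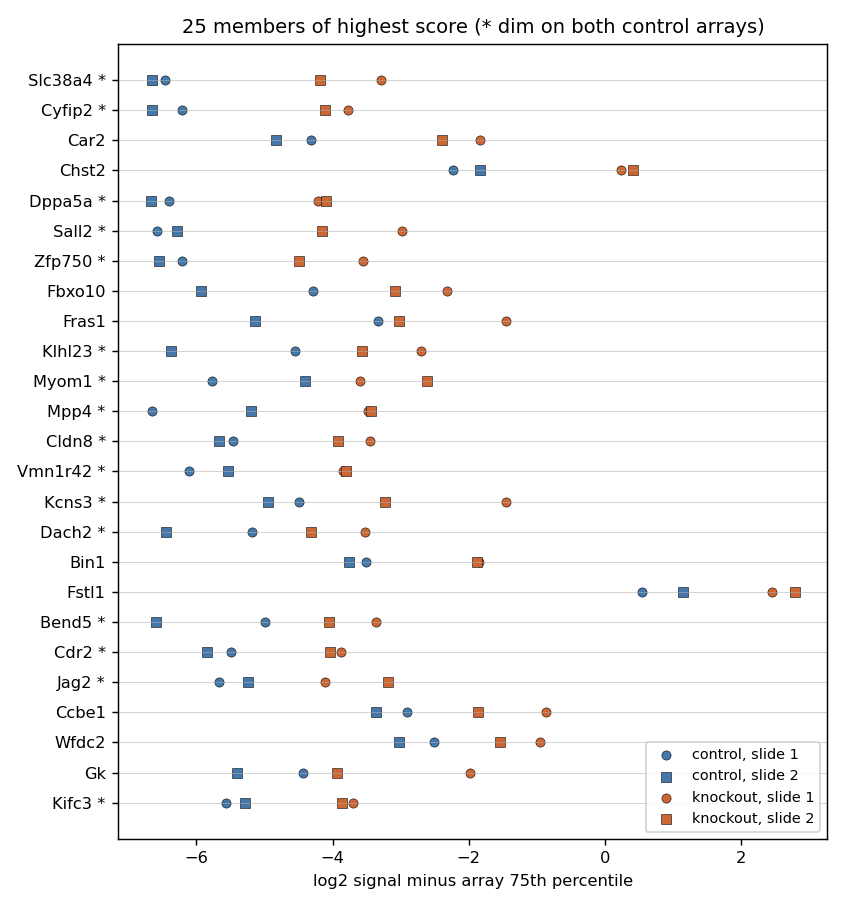
Log2 signal minus the array's 75th percentile (horizontal axis) on each of the 4 arrays for the 25 genes of highest score, with control in blue, knockout in orange, slide 1 as circles and slide 2 as squares; an asterisk marks genes not well above background on either control array. In every one of the 25 rows the orange points lie to the right of the blue points, and most blue points lie below -4.

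The 25 genes of highest score are plotted array by array. Chst2 and Fstl1 stand out in that plot as the rows with signal above 0 in both knockout arrays, whereas Slc38a4, Cyfip2, Dppa5a and Sall2 have control signal near the bottom of the scale.

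Transporters and channels contributed 5 genes. Slc38a4, an amino acid transporter, had the highest score and was at -6.46 and -6.65 in the control and at -3.29 and -4.18 in the knockout. Kcns3, a subunit that modifies voltage-gated potassium channels, was at -4.49 and -4.94 in the control and at -1.46 and -3.22 in the knockout. Both were dim in the control, and the bounds were at least 1.63-fold for Slc38a4 and at least 4.22-fold for Kcns3. The Kcns3 bound was 2.29-fold without knockout 1 and 7.79-fold without knockout 2. Cacna1a, the pore of a neuronal calcium channel, was at -1.67 and -1.85 in the control and at -0.34 and -0.60 in the knockout. Slc7a2, a transporter of arginine and lysine, was at -2.11 and -2.22 in the control and at -0.93 and -0.84 in the knockout. Grin2d, an NMDA receptor subunit, was at -4.40 and -3.25 in the control and at -3.38 and -2.20 in the knockout, with 1 of 2 control arrays well above background. Cacna1a and Slc7a2 were tight within groups and well above background throughout, at 2.44-fold and 2.43-fold higher. A further Cacna1a probe was 1.38-fold higher. For Grin2d the control array of slide 2 lay above the knockout array of slide 1.

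Adaptors of ubiquitin ligases, ring finger proteins and chaperones came to 7. Fbxo10, an F-box protein, was at -4.29 and -5.93 in the control and at -2.32 and -3.09 in the knockout, with 1 of 2 control arrays well above background. Klhl23, a kelch-like protein, was at -4.56 and -6.37 in the control and at -2.69 and -3.57 in the knockout, at least 2.49-fold higher. Dnaja4, a co-chaperone of heat shock proteins, was at -4.93 and -4.22 in the control and at -2.76 and -2.80 in the knockout, at least 3.03-fold higher. Slide 1 read higher than slide 2 in both groups for Fbxo10 and Klhl23, while the knockout arrays of Dnaja4 nearly coincided. Rnf150, a ring finger protein, was at -3.01 and -2.28 in the control and at -1.0 and -1.11 in the knockout. Dcaf12l1, a relative of an adaptor of cullin ligases, was at -1.34 and -0.88 in the control and at 0.46 and 0.13 in the knockout. Kbtbd11, a kelch and BTB protein, was at -0.38 and -0.39 in the control and at 0.45 and 0.74 in the knockout. These were well above background on all 4 arrays and 3.01-fold, 2.65-fold and 1.97-fold higher. Further Kbtbd11 probes were 1.08-fold and 1.47-fold higher. Kctd6, at -2.66 and -2.35 in the control and at -1.83 and -1.34 in the knockout, closed the group.

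A further group was sorted by role as associated with leukocytes. Btnl9, a butyrophilin-like protein, was at -4.87 and -5.02 in the control and at -3.47 and -3.16 in the knockout, at least 2.18-fold higher. Klrb1f, a natural killer cell receptor, was at -4.63 and -5.08 in the control and at -3.29 and -3.58 in the knockout, at least 2.01-fold higher. Gimap3, a GTPase of lymphocytes, was at -4.44 and -3.89 in the control and at -2.54 and -2.82 in the knockout, with 1 of 2 control arrays well above background. The groups were apart for each. Pik3ap1, an adaptor of B cell and macrophage signalling, was at -3.15 and -2.30 in the control and at -1.29 and -1.32 in the knockout. It was well above background on all 4 arrays and 2.68-fold higher.

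Markers of blood cells give the setting for these genes. Of 19 markers 16 were tested, 0 were among the 100, 0 were called higher and 1, Lyz2, lower, and their median difference was 0.20. Ptprc, which marks leukocytes in general, was at -1.68 and -1.32 in the control and at -1.65 and -1.21 in the knockout, and Cd3e, which marks T cells, at -0.47 and -0.23 in the control and at -0.38 and -0.29 in the knockout. The summed signal of the list was 7.95 and 8.52 on the control arrays, and 7.92 and 8.49 on the knockout arrays (log2), most of it from Itgam at 7.69 and 8.36 in the control and at 7.67 and 8.35 in the knockout. The part of blood cells in these values was not tested. In a sorted bulk sample, more cells of a kind and more RNA per cell cannot be told apart.

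Vesicle, RNA-binding and microtubule genes were few. Syngr1, a synaptic vesicle protein, was at -4.06 and -4.76 in the control and at -3.01 and -1.87 in the knockout. Stxbp5, which restrains vesicle fusion, was at -4.91 and -5.18 in the control and at -4.00 and -4.01 in the knockout. Tmed8, of a family of cargo receptors, was at -4.59 and -6.51 in the control and at -3.69 and -4.24 in the knockout. Stxbp5 and Tmed8 were dim in the control and at least 1.36-fold and 1.39-fold higher, and Syngr1 had 1 of 2 control arrays well above background. Celf2, a splicing regulator, was at -3.90 and -4.89 in the control and at -2.64 and -2.79 in the knockout, again with 1 of 2. Cirbp, an RNA-binding protein induced by cold, was at 0.72 and 0.16 in the control and at 1.78 and 1.09 in the knockout and 1.99-fold higher. Cirbp read higher on slide 1 in both groups, and its lowest knockout array still lay above its highest control array. Kifc3, a minus-end directed kinesin, was at -5.57 and -5.29 in the control and at -3.70 and -3.86 in the knockout, at least 1.58-fold higher. Nin, which anchors microtubules at the centrosome, was at -1.73 and -3.35 in the control and at -0.82 and -0.72 in the knockout. The Nin control array of slide 2 stood far below its other arrays.

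The 6 remaining genes are little described or belong to no group above. Cdr2, an antigen of cerebellar degeneration, was at -5.49 and -5.84 in the control and at -3.88 and -4.04 in the knockout, at least 1.40-fold higher. Armh4 was at -3.41 and -4.41 in the control and at -2.00 and -2.44 in the knockout. Nt5dc2 was at -5.91 and -4.90 in the control and at -2.84 and -3.56 in the knockout, at least 2.36-fold higher. Armh4 had 1 of 2 control arrays well above background, and the groups were apart for these genes. Plekhd1 was at -2.74 and -4.15 in the control and at -1.54 and -1.96 in the knockout. Fam149a was at -0.81 and -0.71 in the control and at 0.23 and 0.44 in the knockout and 2.14-fold higher. A further Fam149a probe was 1.23-fold higher. Hpcal4, a neuronal calcium sensor, was at -4.50 and -6.32 in the control and at -3.55 and -3.87 in the knockout, at least 1.64-fold higher. Fam149a was tight within both groups, while the control arrays of Plekhd1 and Hpcal4 were far apart.

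Most of the genes were dim. The signal on the control arrays was well above background on both for 45, on 1 for 19 and on 0 for 36, whereas the same shares over the eligible genes were 97.2%, 2.18% and 0.617%. The rule asked for signal on the knockout arrays alone and took the largest log2 differences. It therefore favours genes that are dim in the control. The median knockout signal of the 100 was -2.67, against 0.02 over the eligible genes, and 12 of the 100 had a knockout mean above 0. On the linear scale the median of the 100 was 38.9 in the knockout and 14.1 in the control. Probe signals differ with sequence, so these values say how near a probe is to background and do not rank transcripts by abundance.

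**Figure D4:**
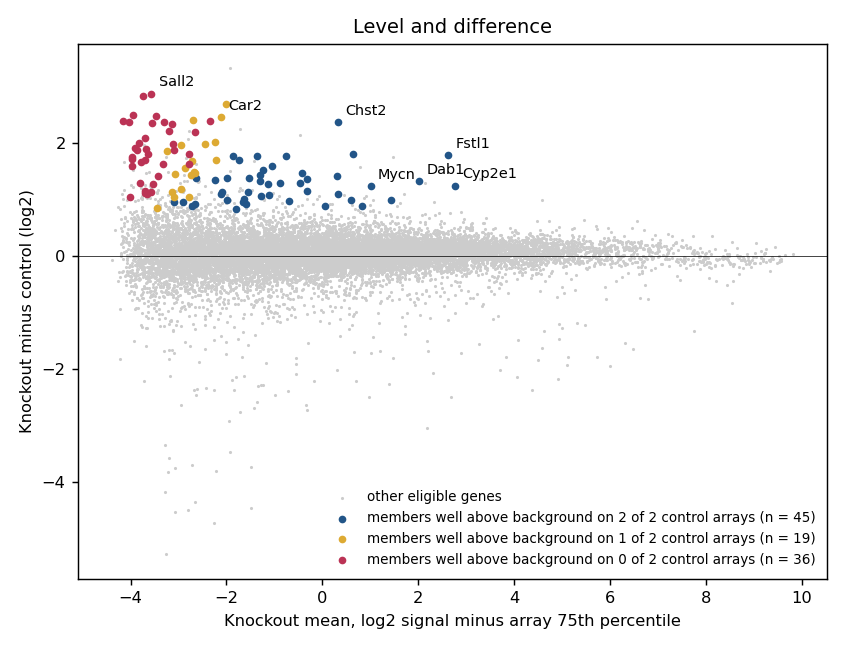
Knockout minus control difference (log2, vertical axis) against knockout mean signal (log2 minus the array's 75th percentile, horizontal axis) for the 100 genes, coloured by how many control arrays were well above background, and for the other eligible genes in grey. The genes measured on 0 control arrays (red, n = 36) crowd at the dim end, and those measured on both (blue, n = 45) reach up to Cyp2e1 at a knockout mean of 2.76.

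As the plot of difference against signal shows, the spread of all genes widens at the dim end. The median difference was 1.88 for the 36 genes dim on both control arrays, 1.55 for the 19 measured on 1 and 1.24 for the 45 measured on both. Bounds for the 36 ran from 1.22-fold to 4.22-fold, with a median of 1.71-fold. The scanner's own error bars, which cover the spot and not the sample, were apart on both slides for all 100 genes, as for 5.35% of the eligible genes. This follows largely from the rule, which asked for a difference on both slides and knockout signal well above background. The median SD within the control was 0.37 and within the knockout 0.26, against 0.22 and 0.22 over the eligible genes.

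Background correction changed the size of the differences. With a normexp correction and an offset of 50 added to the corrected signal, the median difference was 0.43 in place of 1.45, with a range of 0.16 to 1.64. Of the 100 genes 6 were above 1, compared with 86. All 100 stayed higher on both slides. The 6 were Chst2, Fstl1, Phldb2, Cyp2e1, Dab1 and Dcaf12l1.

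Further probes for the same genes repeat the contrast on the same arrays and RNA, so they are no independent samples, but they were not used by the rule. Only 24 of the 100 genes have any, 33 probes in all, and 19 of these were higher in the knockout on both slides, against 32.4% of the further probes of eligible genes. Of the 15 that were well above background on both knockout arrays, 12 were higher on both slides, against 37.2%. That filter looks at the knockout arrays alone, where these genes were chosen to be high. The counts are therefore a description and no support for the differences.

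**Figure D5:**
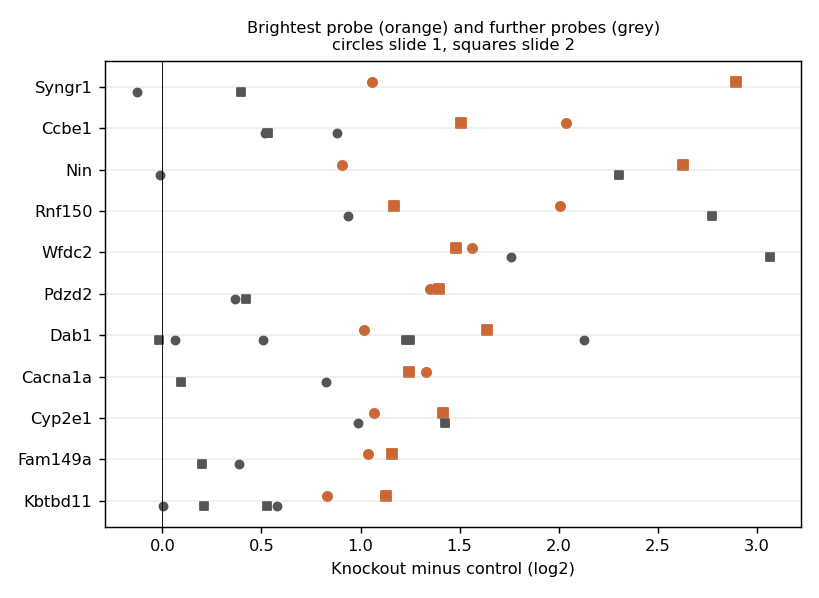
Knockout minus control difference (log2, horizontal axis) on slide 1 (circles) and slide 2 (squares) for the brightest probe (orange) and the further probes (grey) of the 11 genes with a further probe well above background on both knockout arrays. Most grey points lie right of 0 and left of the orange ones, with exceptions for Syngr1, Dab1 and Nin at or below 0.

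The plot of further probes shows sizes that vary between probes of the same gene. For Wfdc2 the further probe differed by 1.76 on slide 1 and 3.07 on slide 2, more than the brightest probe at 1.56 and 1.48. For Cyp2e1 the further probe gave 0.98 and 1.43, close to 1.07 and 1.41 by the brightest. The 3 plotted probes that were not higher on both slides belonged to Syngr1 (-0.13 and 0.39), Nin (-0.01 and 2.30) and Dab1 (0.07 and -0.02). Among the dimmer further probes, which are not plotted, that of Mpp4 was lower on both slides (-1.77 and -0.23). The other Dab1 probes were higher on both slides, so its probes disagree. The files used here do not say which transcript each probe reads. The other 76 genes rest on a single probe.

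The difference between the slides is a contrast the rule did not use. Limma called 4660 of 24865 genes different between slides, which is 18.7%, of which 2916 were higher on slide 2 and 1744 on slide 1. With the authors' deposited series table the split was 1721 and 2665, so the direction of the slide difference moves with the scaling. Of the 100 genes 8 were called. Fstl1 and Aldoc were higher on slide 2, by 0.47 and 0.74 (log2). Lower on slide 2 were Fras1 at -1.69, Pfn2 at -1.67, Sdc2 at -0.89, Dab1 at -0.82, Mycn at -0.70 and Cirbp at -0.63 (limma, adjusted p from 0.0179 to 0.0459 for the 8). Without the intensity trend 0 genes were called, with 4506 above and 3010 below 0 at an unadjusted p under 0.05 and a smallest adjusted p of 0.1168.

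The genes lay on every chromosome but Y. Chromosome 12 held 8%, against 3.31% of the eligible genes, chromosome 4 7% against 6.47%, chromosome 6 7% against 4.90% and chromosome 11 7% against 8.36%, and the others held fewer. Ifnar1 lies on chromosome 16, where 4 of the 100 lie too, and in the order of RefSeq genes (GRCm38.p6) 74 protein-coding genes stood between it and Cldn8, 206 between it and Phldb2, 262 between it and Fstl1 and 278 between it and Stfa3.

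Promoter sequences were found for 83 of the 100 genes, with 114 windows of 300 bases (250 before and 50 after the start), and for 11393 eligible genes with 14347 windows. Among those not in that table were Car2, Bin1, Fras1, Cldn8, Cacna1a, Zfp750, Dppa5a, Sdc2, Tspyl5, Ccbe1, Rnf150, Gngt2, Slc7a2, Kifc3, Kbtbd11 and Pard6g. The median G+C content was 57.5% for the genes and 59.3% for the eligible genes, and the median CpG ratio 0.56 against 0.71. A CpG ratio over 0.6 was found in 48.2% of the windows against 60.8%.

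Each motif share is set beside the share over all eligible windows. The TATA box (TATAAA) was in 14.04% of the windows against 9.10%, in 16 genes that include Cyp2e1, Slc38a4, Sall2, Klhl23, Col3a1 and Mup4. The core of the interferon-stimulated response element was in 4.39% against 3.09%, and the STAT site (TTCNNNGAA) in 8.77% against 7.16%. The TCF/LEF motif (CTTTGAT) was in 0.877% against 2.70%, in Fam149a alone. The E-box that MYC proteins can bind (CACGTG) was in 6.14% against 9.18%, CCAAT in 29.8% against 37.5% and the AP-1 motif (TGANTCA) in 4.39% against 5.57%. Each was searched on both strands; the response element and the STAT site can overlap. A match is a run of letters and not evidence that a factor binds there, and windows of the same gene can share bases.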

How the data were processed

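RNA from sorted Lgr5-high cells underwent whole-transcriptome amplification and Cy3 labelling, per the labels' protocols, with 1 Agilent mouse array for each of 4 samples. The authors deposited scanner files with linear, background-corrected spot intensity. The file headers name Agilent Feature Extraction 12.0.3.1, and the submitters' processing notes name 11.5.1.1. The series table deposited by the authors holds the same intensity multiplied by a constant for each array, and served as an alternative.

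Control spots and outlier spots (111 to 172 per array) were left out, spots of a probe were averaged, and log2 signals had the array's 75th percentile subtracted. Accessions matched to RefSeq (GRCm38.p6) named 28331 of 55681 probes. A gene, taken by its brightest probe, entered the tests if well above background on both arrays in either group, which left 24865. Targets without a matched symbol are counted in that number under their array identifier. Shares over all genes tested therefore cover more than the named genes. Limma 3.58.1 (R 4.3.3) was fitted with a trend of variance on intensity, and p-values were adjusted by Benjamini-Hochberg at 0.05, without and with a slide block; the fits were tested on simulated data. Descriptions and figures used Python version 3.11.15. The slide equals the replicate number, and the slide differences of control and knockout correlated across genes at a Pearson r of 0.563 (24865 genes, which are not independent replicates).

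The 100 genes and the lists were chosen with earlier results of these data known, and role groups were assigned once the names were known. Values on every array are given for the 25 genes of highest score, those called with the slide block, those in a list, up to 6 per role group by score, and 5 on either side of the threshold; the rest are given by name and range. For 1 of the 100 genes the result is not reported here. The number of arrays, 2 per group, limits the precision. Alternatives covered scaling, background correction, filters, probes, outlier flags, the variance model and leaving out each array.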

Additional observations from a re-analysis of the deposited data

How the results depend on the processing

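A replicate block, which pairs arrays by slide, brought the limma calls from 0 and 0 to 13 higher and 90 lower. Leaving out each array in turn in the fit without the block gave 0 to 6 higher and 9 to 94 lower genes. The lower calls were 18 when control 1 was left out and 71 for control 2, then 9 for knockout 1 and 94 for knockout 2. There the lone array of a group is assumed to vary like the other group. Without the intensity trend, the count of genes different between slides was 0 in place of 4660. The block without the trend, chosen after seeing the data, called 0 genes either way. The cause was not tested.

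The median difference of the 100 genes was 0.43 with normexp background correction, which adds an offset of 50 and so shrinks the differences of dim probes. Scaling to the array median, quantile normalization, the authors' series table, the mean over probes and leaving out any array kept the median within the spread between replicates. The rule picked 36 of the 100 genes again with normexp, 49 with no filter on dim probes, and 45 when a probe had to be well above background everywhere, where 46 could be measured and 45 of them were higher on both slides. The exception, Syngr1, was read there by another probe, at -0.13 on slide 1 and 0.39 on slide 2. Taking single genes, 88 of the 100 moved by more than the spread between replicates with normexp, 7 with the mean over all probes and 1 with the strictest filter, and 0 changed direction under any of these settings. Normexp ran on the median signal. Signal over background limits the 36 genes dim on both control arrays and the 19 dim on 1 of them.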
